A study of Mus musculus with 24 samples.

Results

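The MHC class I and antigen processing genes described here are B2m, H2-K1, H2-D1, Tap1, Tap2, Tapbp, Psmb8, Psmb9 and Psmb10, 9 genes in all. They were found as the probes whose gene symbol in the platform annotation is one of these names, which gave 19 of the 45281 probes on the array. Of those, 16 probes of 8 genes passed the detection filter and 8 of the 8943 genes tested are members. Tap1 was the member without a detected probe.

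Gastrocnemius, a mixed calf muscle made mainly of fast fibres, was taken from male B6D2F1 mice of the colony kept for the National Institute on Aging and profiled on Illumina bead arrays. The groups were old caloric restricted mice (OCR, 24 months, 5 mice on 7 arrays), old mice fed ad libitum (OAL, 24 months, 6 mice on 7 arrays) and young mice fed ad libitum (YAL, 8 months, 6 mice on 10 arrays). No gene was altered in any group, all mice share the B6D2F1 hybrid background, and the labels say neither how strict the restriction was nor when it began. B6D2F1 mice are the first generation cross of C57BL/6 and DBA/2, which carry different MHC haplotypes, so each mouse holds unlike copies of the class I genes. Arrays that carry the same mouse name were averaged, and the labels do not state in so many words that each name is a separate animal, so a p-value here covers the variation among 17 samples that may be partly technical.

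MHC class I molecules show short peptides from proteins made inside a cell to CD8+ T cells. The proteasome cuts the peptides, the TAP transporter carries them into the endoplasmic reticulum, tapasin holds the empty class I molecule beside TAP until a peptide fits, and the loaded complex of heavy chain and beta-2-microglobulin moves to the surface. Interferon gamma raises many of these genes together, and it exchanges the catalytic subunits of the standard proteasome for those of the immunoproteasome. Resting muscle fibres are known for low class I levels, whereas inflamed muscle shows more.

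Of the 9 genes, 7 lie on mouse chromosome 17, in or near the MHC. On the GRCm38.p6 build, Tapbp spans chr17:33919478-33929290, H2-K1 chr17:33996012-34000619 (minus strand), Psmb9 chr17:34182030-34187330 (minus strand), Tap1 chr17:34187556-34197225, Psmb8 chr17:34198195-34201454, Tap2 chr17:34204479-34216321 and H2-D1 chr17:35263094-35267497. B2m lies at chr2:122147687-122153082 and Psmb10 at chr8:105935728-105938392 (minus strand). Psmb9 and Tap1 point away from each other, and their annotated starts are separated by 225 bases.

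RefSeq promoter sequences were at hand for 8 of the 9 genes, all but Tap2, and the 250 bases before each start were searched on both strands. The searched motifs were the interferon regulatory factor motif GAANNGAAA, a longer core of the interferon-stimulated response element with GAAA on both sides of any 2 bases, the interferon gamma activated site TTCNNNGAA and the kappa B consensus. A match describes letters in a window and is not a bound site. The stretches of the members that hold a match are printed because 3 of them, those of B2m and both classical heavy chains, hold a kappa B match beside an interferon motif, and because that of Psmb8 holds the 1 interferon gamma activated site. Capitals mark the matches, with 20 bases on each side, read along each gene's own strand.
B2m, chr2:122147528-122147590, plus strand: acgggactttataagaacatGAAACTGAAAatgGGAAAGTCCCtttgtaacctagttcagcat
H2-K1, chr17:34000409-34000478, minus strand: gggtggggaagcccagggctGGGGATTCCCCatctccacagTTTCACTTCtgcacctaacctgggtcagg
H2-D1, chr17:35262903-35262972, plus strand: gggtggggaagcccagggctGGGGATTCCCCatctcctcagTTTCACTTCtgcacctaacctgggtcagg
Psmb8, chr17:34198078-34198126, plus strand: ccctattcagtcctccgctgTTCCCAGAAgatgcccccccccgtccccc

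The H2-K1 and H2-D1 stretches are identical at 69 of 70 bases, with A38T as the substitution from H2-K1 to H2-D1, counted from the first printed base. GAANNGAAA matched in 2 of the 8 members, H2-K1 and H2-D1, and in 6.31% of 32851 mouse promoters. Its matches lie on the opposite strand here, and the longer core matched in 1 member, B2m, and in 2.98% of promoters. In the members no interferon motif overlapped a kappa B match, and the kappa B letters of H2-K1 and of H2-D1 are 2 overlapping matches each. The interferon gamma activated site matched in 1 member, Psmb8, and in 7.02% of promoters. The kappa B consensus matched in 3 members and in 7.25% of promoters, and 0.511% of promoters held a kappa B match together with either interferon factor motif. No motif matched in the windows of Tap1, Tapbp, Psmb9 or Psmb10.

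All values below are log2 normalised intensities. A difference of 1 is a change by a factor of 2, and levels of different genes are not compared because each probe has its own brightness. One library stood apart for these genes: old ad libitum mouse 1, measured on 1 array, was the highest of the 17 mice for 6 of the 8 tested members, against 9.73% of all genes. The members' differences between groups that hold it are therefore given with that mouse and without it. Muscle fibre markers were bright on every array, with myoglobin (Mb) at 15.26 ± 0.06 in restricted, 15.16 ± 0.07 in old ad libitum and 15.27 ± 0.02 in young mice (SD, n = 5, 6 and 6). These values mark skeletal muscle and do not tell gastrocnemius from another muscle. Between 13625 and 15176 probes were detected on an array.

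**Figure D1:**
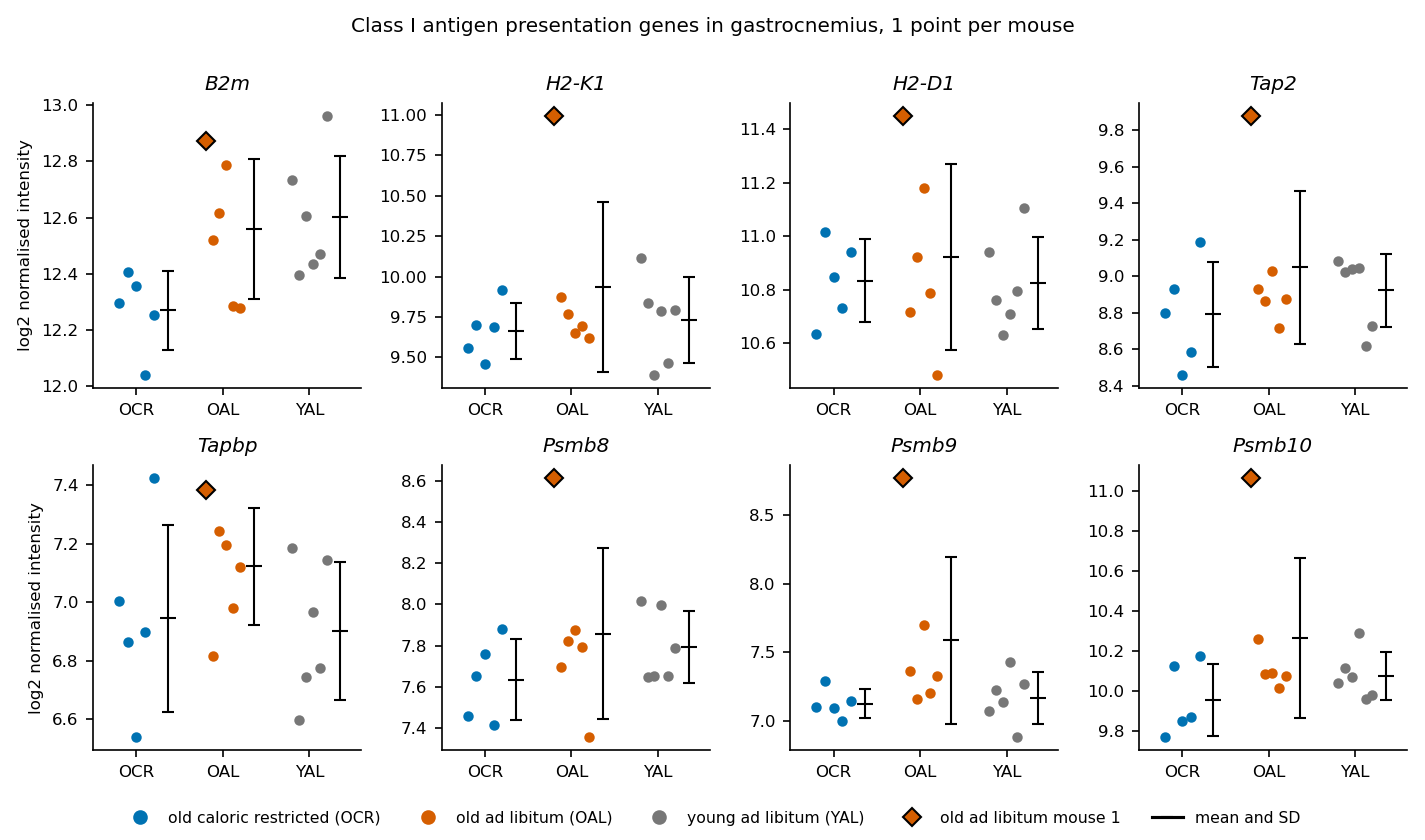
Log2 normalised intensity of the 8 tested class I antigen presentation genes (vertical axes) in old caloric restricted (OCR), old ad libitum (OAL) and young ad libitum (YAL) mice, 1 point per mouse, with bars for mean and SD. Old ad libitum mouse 1, drawn as a diamond, is the highest point of all 17 for H2-K1, H2-D1, Tap2, Psmb8, Psmb9 and Psmb10, while the groups overlap in every panel.

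The first question is how the class I genes of old muscle differ between restricted and ad libitum feeding. None of the 8 tested members passed the test (limma, Benjamini-Hochberg adjusted p under 0.05 over all genes), against 3.18% of all genes in that comparison. All 8 had a lower mean in restricted than in old ad libitum muscle, with a median difference of -0.26, and 55.3% of all genes were lower, with a median of -0.02. Without old ad libitum mouse 1 the median difference of the members was -0.11, with 7 of 8 lower. In whole muscle, fewer cells of a type and less RNA per cell cannot be told apart.

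B2m encodes beta-2-microglobulin, the light chain that every class I molecule needs to reach the surface. Its level was 12.30, 12.40, 12.35, 12.04 and 12.25 in the 5 restricted mice. It ran from 12.28 over a median of 12.57 to 12.87 in old ad libitum mice, and from 12.40 over a median of 12.54 to 12.96 in young mice. The restricted mice lay at the low end, and their highest values overlapped the lowest of both other groups. The mean was 12.27 ± 0.14 in restricted mice, 12.56 ± 0.25 in old ad libitum mice and 12.60 ± 0.22 in young mice (SD). Restricted minus old ad libitum was -0.29 (95% interval -0.55 to -0.03, limma adjusted p = 0.192), and -0.23 without old ad libitum mouse 1 (adjusted p = 0.316). The second detected B2m probe gave -0.26 in the same comparison, and -0.19 without that mouse.

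H2-K1 encodes a classical class I heavy chain, the part that binds the peptide. Restricted mice had 9.56, 9.70, 9.46, 9.69 and 9.91. Old ad libitum mice ran from 9.62 over a median of 9.73 to 10.99, and young mice from 9.39 over a median of 9.79 to 10.12. Mouse 1 alone held the old ad libitum maximum of 10.99, and the other 5 mice of that group lay between 9.62 and 9.88, inside the young range. Restricted minus old ad libitum was -0.27 ± 0.20 (SE, limma adjusted p = 0.478) and only -0.06 without mouse 1. The other detected H2-K1 probe gave -0.17, and -0.02 without mouse 1, and the remaining H2-K1 probe was not detected on any array.

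H2-D1, the other classical heavy chain, had 10.64, 11.02, 10.85, 10.73 and 10.94 in restricted mice. Its old ad libitum values ran from 10.48 over a median of 10.86 to 11.45, and its young values from 10.63 over a median of 10.78 to 11.11. The 3 ranges lay almost on top of each other apart from mouse 1. Restricted minus old ad libitum was -0.09 ± 0.14 (SE, limma adjusted p = 0.776) and 0.02 without mouse 1. Of the 4 H2-D1 probes, all detected on all 24 arrays, 3 had a lower mean in restricted mice and 1 a higher one (0.08). Without mouse 1, 2 of the 4 had a lower mean. Class I genes are near-identical copies of each other and vary between the parental strains, so signal of H2-K1, H2-D1 and the Q and T genes may be shared between probes. Probe sequences were not used here, and how far the signals are separate was not tested.

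The TAP transporter is a pair of the Tap1 and Tap2 proteins. Tap2 had 8.80, 8.93, 8.46, 8.59 and 9.19 in restricted mice. It ran from 8.71 over a median of 8.90 to 9.88 in old ad libitum mice and from 8.62 over a median of 9.03 to 9.09 in young mice. Restricted mice 3 and 4 held the lowest Tap2 values of the study, and restricted mouse 5 was second only to old ad libitum mouse 1. The difference of restricted minus old ad libitum was -0.26 ± 0.18 (SE, limma adjusted p = 0.437), and -0.09 without mouse 1. Tap1 has 1 probe, which was detected on 0 of 24 arrays. Its values lay between 4.69 and 5.62, below the lowest detected signal of any array (5.73 to 6.10), and the highest of them was again old ad libitum mouse 1 (detection p = 0.0299). An undetected probe says little of a gene on this platform, since probes of the ubiquitous genes Canx and Psma1 were not detected on any array either.

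Tapbp encodes tapasin, which bridges TAP and the heavy chain and edits the peptide. Its level was 7.005, 6.86, 6.54, 6.90 and 7.42 in restricted mice. It ran from 6.82 over a median of 7.16 to 7.38 in old ad libitum mice and from 6.60 over a median of 6.87 to 7.19 in young mice. Restricted mouse 5 was the highest of all mice, and restricted mouse 3 the lowest. Tapbp differed by -0.18 ± 0.14 between restricted and old ad libitum mice (SE, limma adjusted p = 0.518), and by -0.13 without mouse 1. The dimmer Tapbp probe, detected on 15 of 24 arrays, gave -0.23 both with mouse 1 and without it.

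Psmb8 encodes the immunoproteasome subunit that replaces the one from Psmb5. Psmb8 had 7.46, 7.65, 7.76, 7.41 and 7.88 in restricted mice. Its old ad libitum values ran from 7.35 over a median of 7.81 to 8.62 and its young values from 7.65 over a median of 7.72 to 8.02. Old ad libitum mice held both the highest value, in mouse 1, and the lowest, in mouse 6. The difference was -0.23 ± 0.16 (SE, limma adjusted p = 0.462) for restricted minus old ad libitum, and -0.07 without mouse 1. The dimmer Psmb8 probe gave -0.33, and still -0.22 without mouse 1. That probe was detected on 8 of 24 arrays, and on 0 of the restricted ones, so its size is uncertain.

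Psmb9, whose product replaces that of Psmb6, had 7.10, 7.29, 7.09, 6.996 and 7.14 in restricted mice. It ran from 7.16 over a median of 7.34 to 8.77 in old ad libitum mice, and from 6.88 over a median of 7.18 to 7.43 in young mice. The restricted mice were the most alike for this gene, with an SD of 0.11 against 0.61 in old ad libitum and 0.19 in young mice. The mean was 7.12 in restricted mice against 7.59 in old ad libitum mice, a difference of -0.46 (95% interval -0.91 to -0.02) and the widest of the members in this comparison. Its limma adjusted p was 0.234. Without mouse 1 the difference was -0.23 ± 0.11 (SE, adjusted p = 0.265).

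Psmb10, whose product replaces that of Psmb7, had 9.77, 10.13, 9.85, 9.87 and 10.17 in restricted mice. Old ad libitum mice ran from 10.01 over a median of 10.09 to 11.07 and young mice from 9.96 over a median of 10.06 to 10.29. Restricted mice 1, 3 and 4 lay below every other mouse, while restricted mice 2 and 5 lay within both other groups. Restricted minus old ad libitum was -0.31 ± 0.15 (SE, limma adjusted p = 0.27) and -0.15 ± 0.09 without mouse 1. Both Psmb10 probes had a lower mean in restricted mice, and the dimmer one differed by -0.18, or -0.07 without mouse 1.

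**Figure D2:**
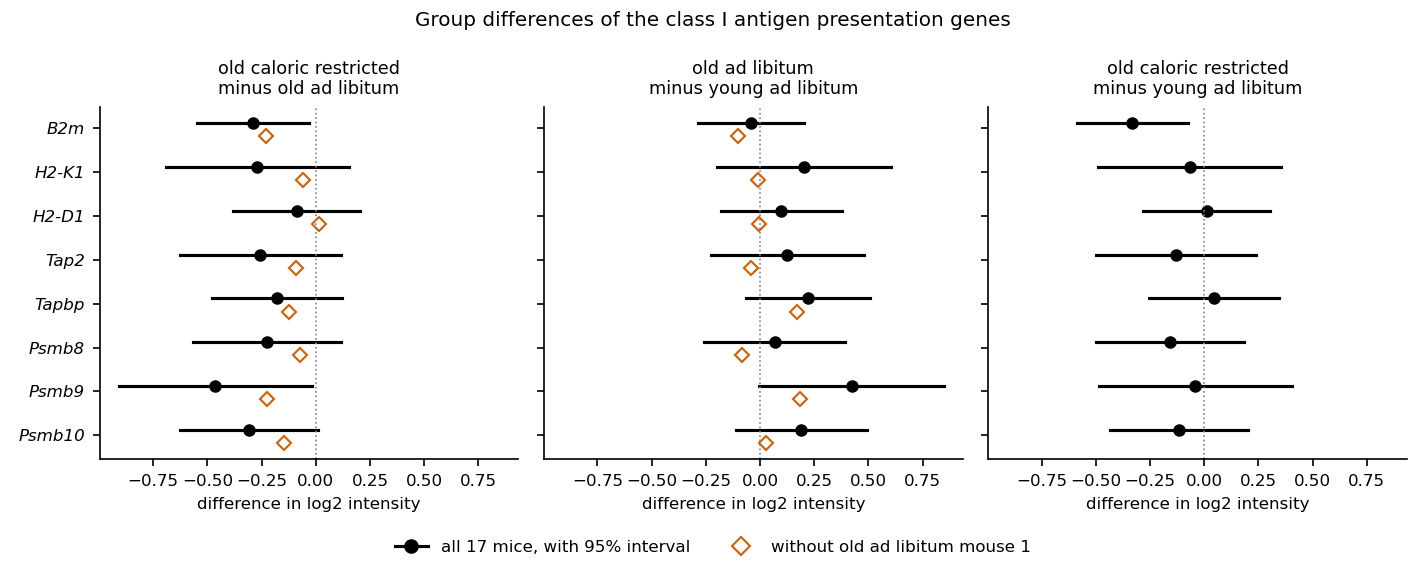
Difference in log2 intensity (horizontal axes) of each member between 2 groups, with filled circles for the fit of all 17 mice, lines for its 95% interval, and open diamonds for the difference without old ad libitum mouse 1. Leaving out that mouse moves the old ad libitum differences towards 0 for 7 of the 8 members in the first panel, and H2-D1 passes to 0.02. The third panel has no diamonds because its groups do not hold that mouse.

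Unadjusted p was under 0.05 for 2 of the 8 members in restricted against old ad libitum muscle, B2m (p = 0.0292, limma) and Psmb9 (p = 0.0422, limma), against 19.8% of all genes. No member had groups that did not overlap, against 2.36% of all genes. The 4 chips of 6 arrays each held all 3 groups, so differences could also be taken inside a chip. The median difference of the members was -0.45 on chip 1, which holds mouse 1, and -0.07, 0.04 and -0.09 on chips 2, 3 and 4.

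The second comparison asks what age does under ad libitum feeding. In old ad libitum against young muscle 0 of 8 members passed the limma test, against 2.06% of all genes, and 0 of 8 had an unadjusted p under 0.05, against 19.4%. The mean was higher in old mice for 7 of the 8 members, all but B2m, with a median difference of 0.16, and 54.2% of all genes were higher. Without old ad libitum mouse 1 the median difference was -0.01 and 5 of the 8 members were lower in old mice.

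Psmb9 was the member nearest the threshold with age, at 7.59 ± 0.61 in old ad libitum against 7.17 ± 0.19 in young mice (SD). The difference was 0.42 (95% interval 0.00 to 0.85, limma adjusted p = 0.261), and 0.18 ± 0.10 without mouse 1 (SE). Tapbp came next at 7.12 ± 0.20 in old ad libitum against 6.90 ± 0.24 in young mice, a difference of 0.22 (limma adjusted p = 0.389). On the probe used it depended little on mouse 1, without which it was 0.17. The dimmer Tapbp probe gave only 0.02, both with mouse 1 and without it, so the difference rests on the brighter probe. H2-K1 was 9.93 ± 0.53 in old ad libitum and 9.73 ± 0.27 in young mice, and its difference of 0.20 went to -0.01 without that mouse.

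For the other members the age difference was -0.04 for B2m, 0.10 for H2-D1, 0.12 for Tap2, 0.07 for Psmb8 and 0.19 for Psmb10, each smaller than 1.5 times its standard error. Without mouse 1 these became -0.10, -0.01, -0.04, -0.08 and 0.03. Second probes did not always give the same size. Some gave a smaller difference, as for Tapbp above, and others a larger one. A dimmer H2-D1 probe gave 0.39 (limma p = 0.0277 unadjusted, 0.183 adjusted over all probes) and the other Psmb10 probe gave 0.30 (limma p = 0.0292 unadjusted, 0.187 adjusted). Without mouse 1 these were 0.25 and 0.19 (limma p = 0.082 and 0.0836 unadjusted, 0.282 and 0.285 adjusted). The dimmer Psmb8 probe, detected on 8 arrays, gave 0.31, and 0.20 without mouse 1, where the probe used gave -0.08. Groups overlapped for every member, against 2.59% of genes whose groups did not.

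In restricted against young muscle 0 of 8 members passed the limma test, against 4.71% of all genes. The median difference was -0.09, with 6 of the 8 lower in restricted mice and 51.7% of all genes lower. B2m had the widest difference of the members, -0.33 (95% interval -0.59 to -0.07), or 1.26-fold lower, with p = 0.0145 unadjusted and 0.123 adjusted (limma). It was the 1 member with an unadjusted p under 0.05, against 21.5% of all genes. Both its detected probes had a lower mean in restricted mice. In a fit of all 24 arrays with chip as a fixed block and mouse as a random block the B2m difference was -0.35 and passed (limma adjusted p = 0.0493), the 1 member call made under any setting tried. Within the 4 chips the B2m difference was -0.58, -0.28, -0.47 and -0.31, so it had the same sign on every chip. The chips are not independent here, since young mouse 6 was on all 4 of them. That mouse had the highest B2m value of all mice (12.96). The other 7 members differed by between -0.16 for Psmb8 and 0.04 for Tapbp, and their groups overlapped, as did those of B2m, against 5.13% of genes whose groups did not. Their other kept probes ran from -0.21 for Tapbp to 0.18 for H2-D1. The other probes of Tapbp (-0.21) and Psmb10 (0.12) had the opposite sign to the probe used, as did 1 of H2-D1 (-0.01).

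The spread between mice was taken inside each group. The median SD of the 8 members was 0.18 in restricted, 0.41 in old ad libitum and 0.19 in young mice. Over all genes it was 0.17, 0.19 and 0.14. For the old ad libitum mice without mouse 1 the median SD of the members was 0.19, against 0.18 over all genes. H2-K1 had an SD of 0.53 in old ad libitum mice, wider than that of 96.2% of genes, and 0.10 without mouse 1. Psmb9 had 0.61 with mouse 1 and 0.21 without it, and Psmb10 had 0.40 and 0.09.

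A test of the spread itself compared the absolute deviations from the group medians with limma across all genes. No member passed in any comparison, against 0% of genes for restricted against old ad libitum, 0.0783% for old ad libitum against young and 0.0447% for restricted against young. At an unadjusted p under 0.05 the shares of genes were 4.93%, 6.26% and 3.01%, and 0 members were among them. The lowest p of a member was 0.12 for restricted against old ad libitum and 0.111 for old ad libitum against young, both for H2-D1.

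Old ad libitum mouse 1 exceeded the median of the other 5 old ad libitum mice by 1.45 for Psmb9, 1.30 for H2-K1, 1.002 for Tap2 and 0.98 for Psmb10. The same excess was 0.82 for Psmb8, 0.66 for H2-D1, 0.35 for B2m and 0.26 for Tapbp. These correspond to 2.72-fold for Psmb9 and 1.20-fold for Tapbp at the ends. The median over all genes was 0.00, and 0.47% of genes exceeded 1, among them 3 members. Of the 16 kept probes, 12 were highest in mouse 1 of all mice and 15 were above every other old ad libitum mouse. The exception was the dimmer Tapbp probe.

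The difference is visible before normalisation for all tested members but B2m (8195 against up to 8329 elsewhere) and Tapbp (252 against up to 268.3). Deposited signals also carry the brightness of each array, whose median ran from 82.94 to 119.7. The deposited signal of Psmb9 was 536.3 on the array of mouse 1 and at most 255.6 on the other 23 arrays. H2-K1 had 2263 against at most 1402, Psmb10 had 2389 against at most 1369, and Tap2 had 1091 against at most 739.5. Repeated arrays existed for 5 other mice, whose member values differed by a median of 0.11 and at most 0.60 between arrays. Mouse 1 has no repeated array, so its values rest on a single hybridisation, and a repeat was not tested.

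**Figure D3:**
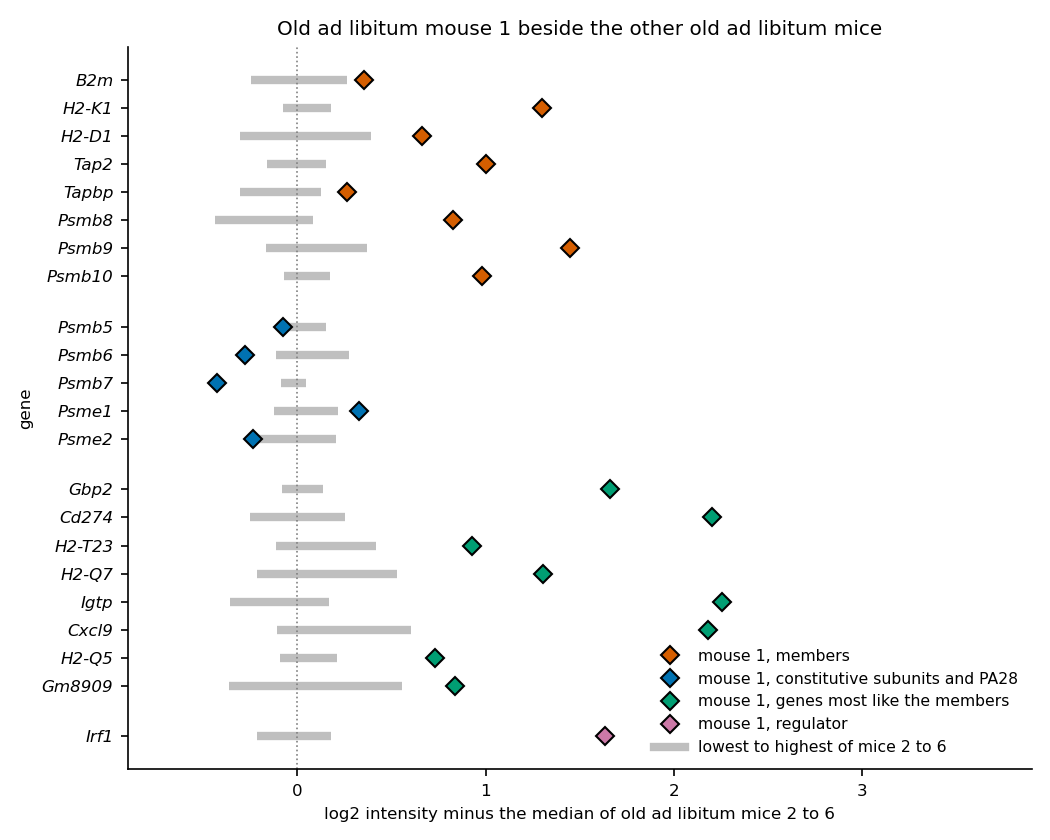
Log2 intensity of old ad libitum mouse 1 (diamonds) minus the median of old ad libitum mice 2 to 6, with grey bars from the lowest to the highest of those 5 mice, for the members, for constitutive proteasome subunits and PA28 genes, for the genes most like the members and for Irf1. Psmb9 lies 1.45 and H2-K1 1.30 above that median, while Psmb5, Psmb6 and Psmb7 lie at -0.08, -0.28 and -0.43.

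The standard proteasome genes did not share that pattern. Psmb5, Psmb6 and Psmb7, the constitutive counterparts of Psmb8, Psmb9 and Psmb10, were lower in mouse 1 than the median of the other old ad libitum mice by 0.08, 0.28 and 0.43. The PA28 activator genes split, with Psme1 higher by 0.33 and Psme2 lower at -0.24. Of the 7 genes in the list of constitutive subunits, assembly factor and PA28, 0 passed in any comparison, and of 8 measured genes of the remaining core particle also 0. Their medians for restricted against old ad libitum were 0.08 and 0.07.

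Of the regulators, Irf1, an interferon-induced transcription factor that binds class I promoters, was 1.63 higher in mouse 1 at 11.40, and at most 9.95 in any other mouse. Its restricted mice averaged 9.42 ± 0.12, its old ad libitum mice 10.03 ± 0.69 and its young mice 9.78 ± 0.11 (SD), and it passed in no comparison with all mice in the fit. Without mouse 1 the old ad libitum mean came nearer to the others and the spread shrank, and Irf1 was then lower in restricted than in old ad libitum mice (-0.33, limma adjusted p = 0.0479) and lower than in young mice (-0.36, limma adjusted p = 0.0227). The probe of Nlrc5, the class I transactivator, was not detected on any array. Among 20 measured regulators, Relb and Nfkb2, both NF-kappa B family members, rose in old ad libitum against young muscle by 0.54 and 0.67 (limma adjusted p = 0.005 and 0.00884). Irf2 fell by 0.31 (adjusted p = 0.0466), and Tyk2, a kinase of interferon receptors, fell by 0.29 in restricted against old ad libitum muscle (adjusted p = 0.0342, limma). In mouse 1 these 4 genes were within 0.06 of the median of the other old ad libitum mice, and without it the calls of Relb, Nfkb2 and Tyk2 stood while Irf2 had an adjusted p of 0.056 (limma). Nfkb2 was detected on 13 of 24 arrays. Its young mean (5.79) lay near the lowest detected signals of the arrays (5.73 to 6.10), so the size of its rise is uncertain.

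Over all 17 mice, the genes most like the mean of the standardised members were Gbp2 (Pearson r = 0.93), Cd274 (0.92), H2-T23 (0.89), H2-Q7 (0.89), Igtp (0.88) and Cxcl9 (0.87). Gbp2 and Igtp encode interferon-inducible GTPases, Cd274 encodes PD-L1, a ligand that restrains T cells, H2-T23 and H2-Q7 are non-classical class I genes, and Cxcl9 is an interferon gamma induced chemokine. After each group's mean was subtracted, H2-Q5 and Gm8909 took the places of Igtp and Cxcl9. These genes were picked for their likeness from 8943, on the same arrays as the members, so the values are a description. Without mouse 1, r was 0.74 for Gbp2, 0.74 for Cd274, 0.66 for H2-T23, 0.62 for H2-Q7, 0.52 for Igtp and 0.53 for Cxcl9. The genes most like the members were then Ppm1m (0.79), Rita1 (0.78), Ifit3 (0.78), Sh3tc1 (0.77), Gm8909 (0.76) and Prdm16 (0.75). None of the genes named first for all 17 mice was among them. With each group's mean also subtracted, Rita1 (0.85), Zfp598 (0.85) and Gm8909 (0.84) led.

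In mouse 1 the genes named first for all 17 mice exceeded the median of the other old ad libitum mice. The excess was 2.25 for Igtp, 2.20 for Cd274, 2.18 for Cxcl9, 1.66 for Gbp2, 1.31 for H2-Q7 and 0.93 for H2-T23. Other genes chosen after their values were seen were Irgm2, 2.39 higher, Ifi47, 1.87 higher, Gbp3, 1.65 higher, and Irf8, 1.40 higher. Ccl8 (1.53), Ubd (1.49) and Bst2 (1.19) were chosen in the same way. Ubd was not highest in mouse 1, at 7.59 against 7.85 in a young mouse. The ranking they were picked from also holds genes outside the lists used here. Among those were Gm4841 (2.72), Gvin1 (1.98), Nkx6-2 (1.52), Spns3 (1.43), Acot1 (1.43) and Pla2g7 (1.42). Of 41 listed interferon-stimulated genes with a probe on the array, 23 passed the filter. Among the rest, Gbp5, Gbp7 and Cxcl10 were detected on the array of mouse 1 and on no other array. The others that failed the filter, such as Gbp4, Ifit1, Oas2 and Mx1, were not detected on any array, that of mouse 1 included.

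The members varied together inside groups. Over their 28 pairs the median correlation of deviations from the group means was 0.63, with 0.89 for Psmb9 and Psmb10 at the top and 0.32 for Tapbp and Psmb9 at the bottom, against a median of 0.00 over pairs of all genes. Without mouse 1 the median was 0.38. B2m with H2-D1 was then the closest pair at 0.77 and B2m with Psmb10 the most distant at -0.06. The mice, arrays and normalisation are shared by every pair, so these are descriptions with no test.

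**Figure D4:**
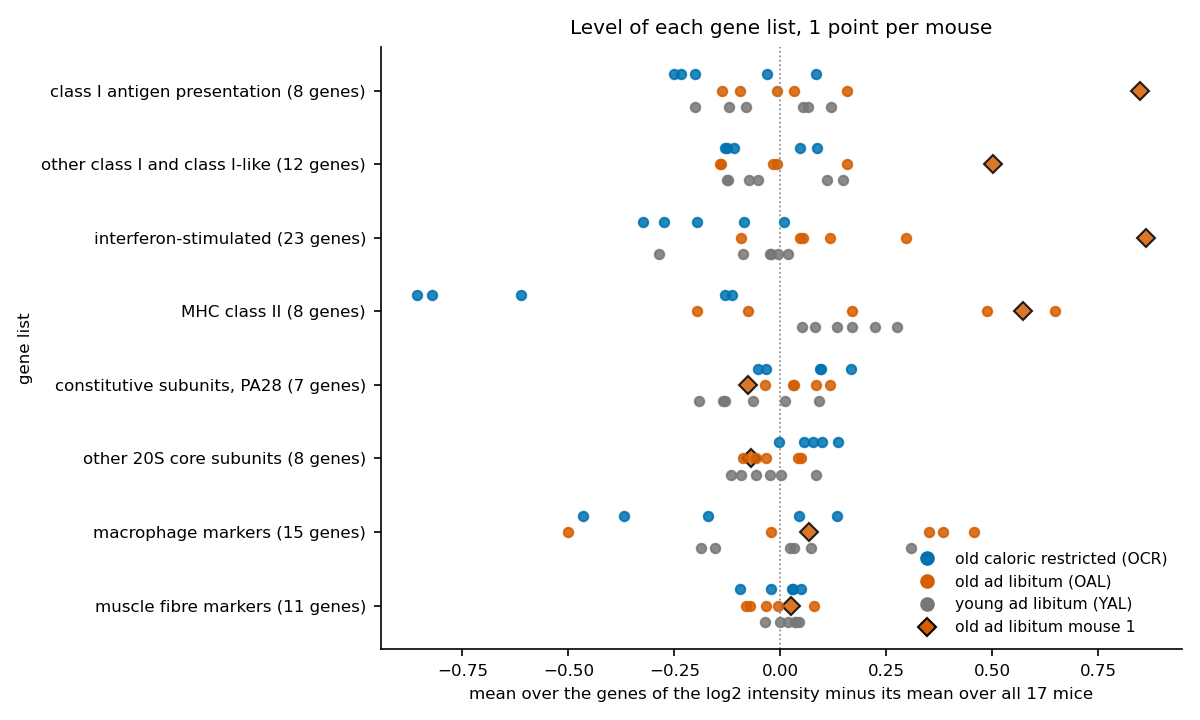
Level of 8 gene lists in each mouse, as the mean over the list's genes of log2 intensity minus its mean over all 17 mice (horizontal axis), for old caloric restricted (OCR), old ad libitum (OAL) and young ad libitum (YAL) mice. Old ad libitum mouse 1 stands at 0.85 for the members and 0.86 for the interferon-stimulated genes, apart from all other mice, and among the other mice for the proteasome, macrophage and muscle lists.

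Averaged over the 8 members, mouse 1 stood at 0.85 above the mean of all mice and the other 16 mice between -0.25 and 0.16. For 12 other class I and class I-like genes it stood at 0.50, with the others at most at 0.16, and 6 of the 12 were highest in mouse 1. None of the 12 passed in any comparison, with or without mouse 1. Their median was -0.10 for restricted against old ad libitum and 0.07 for old ad libitum against young, and without mouse 1 these were -0.0030 and 0.0027. H2-T10 had the smallest p of them in the diet comparison, with a difference of -0.33 (limma adjusted p = 0.187), and -0.19 without mouse 1 (adjusted p = 0.266). Hfe, at -0.19 with all mice, then had the smallest adjusted p of the list (-0.21, limma adjusted p = 0.227).

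Of 23 measured interferon-stimulated genes outside antigen processing, 14 were highest in mouse 1, which averaged 0.86 against at most 0.30 in any other mouse. In old ad libitum against young muscle 20 of the 23 had a higher mean, against 54.2% of all genes, and 2 passed, against 2.06%. Without mouse 1, 9 of the 23 were instead lower in old ad libitum mice. The 2 that passed were Rsad2, higher by 0.87, and Isg15, higher by 0.40 (limma adjusted p = 0.0394 and 0.0466). Isg15 was detected on 11 of 24 arrays, and its young mean (5.77) lay near the lowest detected signals of the arrays (5.73 to 6.10). In restricted against old ad libitum muscle 22 of the 23 had a lower mean, against 55.3% of all genes, and 2 passed, against 3.18%. These were Ifi27l2a, lower by 0.92, and Ly6e, lower by 0.36 (adjusted p = 0.0402 and 0.0478, limma). The median of the list in that comparison was -0.36, or -0.22 without mouse 1. Without that mouse the adjusted p of these 4 genes was between 0.056 and 0.0803 (limma), and Igtp passed instead, at -0.50 in restricted against old ad libitum and 0.45 in old ad libitum against young muscle (adjusted p = 0.0364 and 0.0467, limma). The loading and trimming list had 1 of 8 called, Calr, the chaperone calreticulin, which fell by 0.43 in old ad libitum against young muscle (limma adjusted p = 0.0247) and by 0.38 without mouse 1 (adjusted p = 0.0335).

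MHC class II genes, which present peptides taken up from outside the cell, are given for contrast. In restricted against old ad libitum muscle all 8 measured class II genes had a lower mean. The median was -0.84, or -0.74 without mouse 1, and 6 passed, against 3.18% of all genes. Cd74, the class II invariant chain, fell by 0.89 and H2-DMb1, a peptide editor, by 0.85 (limma adjusted p = 0.0176 and 0.0125), and 4 of the 8 were called without mouse 1. In restricted against young muscle all 8 were again lower (median -0.72). Of these, 5 passed, against 4.71% of all genes, and 6 were called without mouse 1. For class II, mouse 1 stood at 0.57 and old ad libitum mouse 6 higher at 0.65, while 4 of the 8 class II genes were highest in mouse 1 of all 17 mice.

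Markers of other cells were set beside these values. Of 19 T and natural killer cell markers 3 passed the filter, and Ptprc, Cd3d, Cd3e, Cd3g and Cd8a were not detected on any array. Among those 3, Ccl5 fell by 1.20 in restricted against old ad libitum muscle (limma adjusted p = 0.017) and by 1.05 without mouse 1 (adjusted p = 0.0243). Ccl5 was detected on 9 of 24 arrays. Its restricted values (4.99 to 5.66) lay below the lowest detected signal of any array (5.73 to 6.10), so the size of the fall is uncertain. The level of the 3 genes in old ad libitum mouse 1 was 0.49, the highest, with up to 0.40 in the other old mice fed ad libitum. Cd8b1 was detected on 24 arrays and lay 0.48 lower in mouse 1. No B cell or dendritic cell marker passed the filter. The macrophage list (15 genes) ran from -0.47 to 0.13 in restricted, from -0.50 to 0.46 in old ad libitum and from -0.19 to 0.31 in young mice, with mouse 1 at 0.07. In restricted against old ad libitum muscle the median of that list was -0.28, with 11 of 15 genes lower and 4 higher, by up to 0.50. The 3 that passed, against 3.18% of all genes, were lower. These were Mpeg1 by 1.22, Lgals3 by 0.82 and Tyrobp by 0.72 (limma adjusted p = 0.00347, 0.0361 and 0.0421), with Tyrobp detected on 18 of 24 arrays. Without mouse 1 Mpeg1 and Lgals3 still passed, and Tyrobp had an adjusted p of 0.0639 (limma). Neutrophil (4 genes), endothelial (10) and fibroblast (12) markers had 0 called in the 3 comparisons, and mouse 1 was at -0.27, -0.02 and -0.65 on them. The neutrophil list ran from -1.38 to 4.48 in restricted, from -0.64 to 4.93 in old ad libitum and from -1.29 to -0.57 in young mice, with the high ends in restricted mouse 2 and old ad libitum mouse 3. The muscle list (11 genes) stayed between -0.10 and 0.08 in every mouse. Many of its genes lay near the top of the intensity scale, such as Mb (15.08 to 15.32) and Pvalb (15.21 to 15.38). Quantile normalised values can move little there, so this narrow range is a weak measure of fibre content. The part of these cells in the class I values was not tested.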

How the data were processed

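Gastrocnemius RNA of 17 mice was measured on 24 arrays with 45281 probes. The deposited non-normalized table holds a signal intensity per probe and array with a detection p-value, per the file headers, made with GenomeStudio, per the submitters' processing notes. The authors' other table holds intensity values with medians of 98.6 to 98.7 per array, whose normalization is not given in the sources used here. It served as an alternative.

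Signals were background corrected and quantile normalized on the log2 scale with neqc (limma 3.58.1, R 4.3.3, offset 16). No deposited value was on a log2 scale. The filter asked for a detection p below 0.01 on 5 or more arrays, which 15268 probes met. Repeated arrays of a mouse were averaged, and the brightest named probe stood for its gene (8943 genes). Symbols came from the platform annotation: 1 symbol for 34885 probes, several for 18 and none listed for 10378. Of 34807 checked by entrez identifier 0 changed. Differences were tested with lmFit and eBayes in 1 fit (two-sided, Benjamini-Hochberg over all genes, 0.05), and spread by the same fit on absolute deviations from group medians. Both were run on simulated data. The simulated spread was wider in all old ad libitum mice, so that run does not cover the case of 1 mouse standing apart. The number of arrays limits the precision.

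Named genes were the members, list genes that passed (at most 6) or else the 2 with the smallest p in the diet comparison, fixed partners and regulators, and the 6 genes most like the members. The members, lists and motifs were chosen with earlier results of these data known. Gene positions and promoters are from RefSeq on GRCm38.p6. Alternatives covered background, scaling, the authors' values, filters, repeated arrays, chip, probes, prior, weights, samples, mouse number and leaving out each mouse.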

Additional observations from a re-analysis of the deposited data

Results flagged for a closer look

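For 4 of the 8 tested members, old ad libitum mouse 1 lay so far above its group that its gap to the next mouse took up more of the group's range than Dixon's 95% limit for 6 samples. H2-K1 stood at 10.9936 with the next old ad libitum mouse at 9.8764, Tap2 at 9.8783 with the next at 9.0268, Psmb9 at 8.7747 with the next at 7.6964, and Psmb10 at 11.0677 with the next at 10.2599. Chance marks about 1 in 20 groups. In old ad libitum mice 5.78% of all genes had such a sample, and 0.839% had it as a high value of mouse 1. In restricted and young mice 0 of the 8 members had one. The mouse has 1 array, and the reason for its values was not tested.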

How the results depend on the processing

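Differences were recomputed under 13 other settings, within each chip and without each mouse in turn. The within-chip differences have no test. In the tested fits no member was called except B2m in restricted against young muscle with chip as a fixed block and mouse as a random block, which made 1 called member (-0.35, limma adjusted p = 0.0493). The members' median without 1 mouse ran from -0.33 to -0.11 for restricted against old ad libitum, from -0.01 to 0.22 for old ad libitum against young, both ends nearest 0 without old ad libitum mouse 1, and from -0.15 to -0.04 for restricted against young.

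Genes called moved more. For restricted against old ad libitum (284) they were 24 with only those groups fitted, 88 with mouse number as a replicate block and 66 (without restricted mouse 1) to 502 (without restricted mouse 5) with 1 mouse left out. For old ad libitum against young (184) they were 95 with no detection filter, 284 on 24 arrays with the mouse as a random block, 281 with chip as a block, 286 with probes averaged, 482 with array weights, 107 with the replicate block and 32 (without young mouse 2) to 262 (without old ad libitum mouse 3) with 1 mouse left out. For restricted against young (421) they were 273 with no filter, 1147 with weights, 244 with the replicate block and 131 (without restricted mouse 3) to 691 (without restricted mouse 5) with 1 mouse left out. Under scaling to the 75th percentile the old ad libitum against young calls were 87 higher and 88 lower, against 120 and 64. Mice of the same number did not deviate together (r from -0.25 to 0.19 over 16 pairs), and the replicate block changed no member's call. For the spread 0 members were called under every setting run, while the genes called ran from 0 to 2, 0 to 56 and 0 to 39 for restricted against old ad libitum, old ad libitum against young and restricted against young.

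Signs of small differences turned. For old ad libitum against young, B2m became 0.0014 with weights and 0.0021 under percentile scaling. For restricted against young, H2-D1 became -0.0083 with 1 array per mouse and -0.0055 with the replicate block, Tapbp -0.0836 and Psmb10 0.0018 with probes averaged, and Tapbp -0.0011 under percentile scaling. Without 1 mouse, old ad libitum against young ran from -0.10 to 0.031 for B2m, -0.0064 to 0.19 for H2-D1, -0.0095 to 0.28 for H2-K1, -0.085 to 0.17 for Psmb8 and -0.041 to 0.19 for Tap2. Restricted against young ran from -0.035 to 0.067 for H2-D1, -0.14 to 0.0089 for H2-K1, -0.0995 to 0.0102 for Psmb9 and -0.077 to 0.15 for Tapbp, and restricted against old ad libitum from -0.18 to 0.017 for H2-D1. The causes were not tested. Refitting the members' single probes without old ad libitum mouse 1 was added after seeing the data. Dim probes, Tap1 among them, have only a bound.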
